A study of Dicentrarchus labrax with 10 samples.

Results

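The transcripts described here are 193 assembled contigs of the European sea bass (Dicentrarchus labrax) whose level was lower in every gonad of fish reared warm early in life than in every gonad of fish reared cool. They were taken from 3305 contigs on the array, of which 3160 passed the detection filter, selected on 4 measured values: detection, mean level, overlap of the groups and size of the difference. A contig was represented by its brightest probe, the probe had to be well above background in at least 50% of its spots on at least 5 of 10 arrays, its mean level could be at most 6 log2 units above the 75th percentile of the array, the highest HTE2 value had to lie below the lowest LTE2 value, and the mean difference, HTE2 minus LTE2, had to be -0.8 log2 units or less. The group difference chose these contigs, so their lower level in HTE2 is a description and is supported by no test.

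HTE2 fish (n = 5) and LTE2 fish (n = 5) were labelled putative females, and all 10 had been fed estradiol, a feminizing estrogen, from 90 to 154 days post hatch (dph). Larvae of both groups began at 17 °C. At 20 dph HTE2 was brought to 21 °C and LTE2 to 15 °C, and both were at 21 °C after the cool period of LTE2 ended at 60 dph. Gonads were sampled at 170 dph, 1 individual per 1-colour Agilent array. No fish without estradiol was analysed here, and each temperature was held in 1 tank, so tank and temperature cannot be told apart.

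Sex in the sea bass depends on many genes and on the temperature of early life, and warm water during the larval period is known to shift sex ratios towards males. Fish gonads at this stage hold germ cells together with somatic cells that produce steroids, and estrogen made by the enzyme aromatase is central to ovarian differentiation in fish. Early warmth acts long before the gonad differentiates, and an influence of that period on gonadal gene expression months later is the question the design poses.

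Each contig is known here by its assembly name, which has the prefix SeabassC- in the files and is given below without it (CL2917Contig1 stands for SeabassC-CL2917Contig1). No gene symbol, function or genome position was used here, so roles cannot be given and the markers of gonadal cell types were not matched. The level of a contig is the log2 of its processed intensity minus the log2 of the array's 75th percentile over all non-control spots. A level of 0 therefore equals the 75th percentile and each unit is a doubling. Levels of different probes are not compared as amounts of RNA, because probes differ in brightness.

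The arrays differed in brightness between the groups. The 75th percentile of intensity was 943 ± 300 in HTE2 and 527 ± 170 in LTE2 (SD, n = 5), with its highest value, 1393, in HTE2 replicate 4 and its lowest, 243, in LTE2 replicate 1. Between 19440 and 20848 probes were well above background on the HTE2 arrays and between 17692 and 20476 on the LTE2 arrays. HTE2 and LTE2 arrays of equal number lay together on a slide, HTE2 always at place 4 and LTE2 at place 3. Group and place on the slide cannot be told apart. HTE2 replicates 3 and 4 stood apart from their group. Over 19927 probes the mean correlation of replicate 3 was 0.918 with the other HTE2 arrays and 0.947 with the LTE2 arrays, and that of replicate 4 was 0.911 with the other HTE2 arrays and 0.815 with the LTE2 arrays. The other HTE2 arrays had 0.949 to 0.954 with their own group.

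The 193 contigs were a median of 2.39-fold lower in HTE2, with a median difference of -1.26 log2 units and quartiles of -1.58 and -1.04. The median difference of all 3160 contigs tested was -0.15. In 157 of the 193 the fall was over 2-fold, in 15 over 4-fold and in 5 over 8-fold. In whole gonads, fewer cells that carry a transcript and less of it per cell cannot be told apart. In the fit over 20115 probes (limma, Benjamini-Hochberg adjusted p under 0.05), 13.8% of all probes were called lower, and of the 193 contigs 182 were called lower. Nothing is read from that count, as the same contrast chose the contigs. The other 11 contigs had adjusted p-values between 0.0524 and 0.101. Of the 3099 contigs within the level limit, 253 (8.16%) had every HTE2 fish below every LTE2 fish, and 60 of these missed the list for a smaller difference. Clone transcripts, the other kind of transcript on the array, met the same limits in 529 of 6741 (7.85%), against 193 of 3099 contigs (6.23%). For clone transcripts outlier spots were left out, and the brightest probe was taken among those that passed the detection filter. The contigs were chosen with all spots and with the brightest of all their probes.

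**Figure D1:**
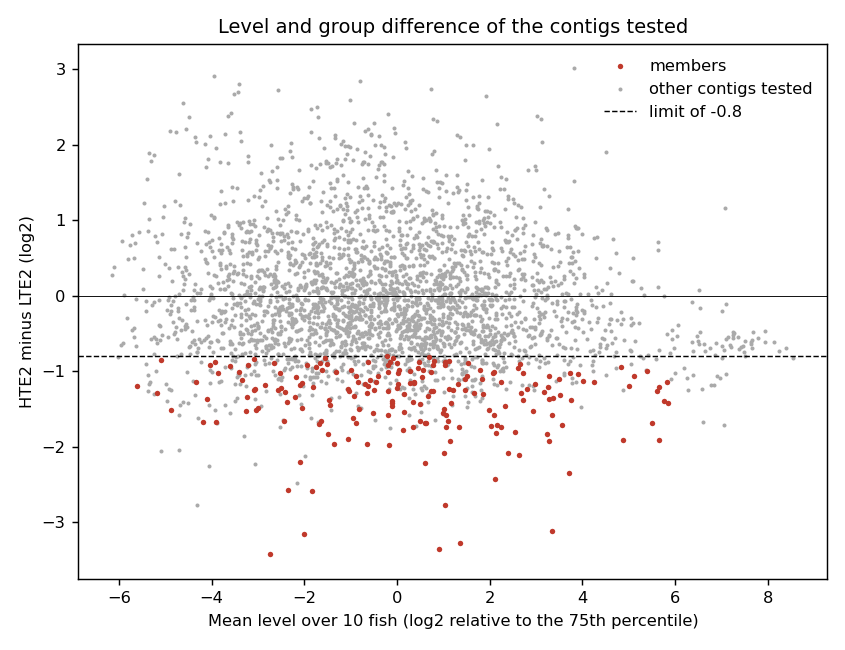
Mean level over 10 fish (x axis, log2 units relative to the array's 75th percentile) against HTE2 minus LTE2 (y axis, log2 units) for 3160 tested contigs, each point 1 contig. The 193 members (red) lie at or below the dashed limit of -0.8 and reach -3.43, and grey points at similar heights are contigs whose groups overlapped or whose mean level was above 6.

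Of the 193 contigs, 5 were over 8-fold lower. CL2917Contig1 had the largest difference, with levels of -4.0, -5.20, -4.64, -4.16 and -4.24 in HTE2 replicates 1 to 5, against 0.58, -0.07, -2.45, -1.43 and -1.73 in LTE2 replicates 1 to 5. The LTE2 fish were spread more widely than the HTE2 fish, with LTE2 replicates 1 and 2 highest, and the groups did not overlap. The means of CL2917Contig1 were -4.45 ± 0.48 in HTE2 and -1.02 ± 1.24 in LTE2 (SD, n = 5), a 10.8-fold difference.

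CL522Contig1 had levels of -0.85, -1.55, -0.09, -0.23 and -1.13 in HTE2, against 2.57, 3.36, 2.34, 2.24 and 2.41 in LTE2. CL3226Contig1 followed nearly the same course, with -0.42, -0.96, 0.15, 0.26 and -0.43 in HTE2, against 3.30, 3.54, 2.78, 2.37 and 2.96 in LTE2. In both, replicate 2 was the lowest HTE2 fish and the highest LTE2 fish, and replicates 3 and 4 were the highest HTE2 fish. The fall was 10.3-fold for CL522Contig1 and 9.64-fold for CL3226Contig1, with spaces between the groups of 2.34 and 2.11 units. The level difference between these contigs varied by an SD of 0.21 over the 10 fish.

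CL2317Contig1 showed the widest space between the groups, 2.52 log2 units from the lowest LTE2 to the highest HTE2 fish. Its levels were -3.43, -3.48, -3.30, -4.40 and -3.29 in HTE2, against -0.29, -0.01, -0.72, -0.77 and -0.33 in LTE2. Apart from HTE2 replicate 4, the fish of each group were alike, and HTE2 replicate 3 stood with replicates 1, 2 and 5. The contig was 8.91-fold lower, and its 3 other probes gave differences of -3.41, -3.23 and -3.19.

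CL4604Contig1 was the brightest of the 5, with 0.98, 0.88, 2.56, 2.68 and 1.85 in HTE2, against 4.09, 4.76, 4.63, 5.00 and 6.02 in LTE2. Its HTE2 fish fell into a lower pair, replicates 1 and 2, and a higher one, replicates 3 and 4. LTE2 replicate 5 was above the other LTE2 fish by more than 1 unit. The means of CL4604Contig1 were 1.79 ± 0.85 in HTE2 and 4.90 ± 0.71 in LTE2 (SD, n = 5), an 8.64-fold difference, and its other 2 probes gave -3.15 and -3.07.

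The next 7 contigs were between 6.84-fold and 4.62-fold lower. CL2256Contig1 had levels of -0.25, -0.18, 0.32, -1.40 and -0.20 in HTE2, against 2.88, 3.01, 1.94, 2.09 and 2.23 in LTE2. Here HTE2 replicate 4 was lowest and replicate 3 highest, the order most often seen among the 193. CL3332Contig1 was 6.01-fold lower, with -2.82, -3.37, -2.22, -3.40 and -3.77 in HTE2, against -0.67, -0.44, -0.89, -0.43 and -0.23 in LTE2. CL1360Contig1 was 5.94-fold lower, with -3.15, -3.36, -2.89, -5.07 and -3.67 in HTE2, against -0.41, -1.04, -1.30, -1.55 and -0.98 in LTE2. In CL3332Contig1 the lowest HTE2 fish was replicate 5, whereas in CL1360Contig1 replicate 4 was far below the others.

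CL3693Contig1 had levels of 1.38, 0.15, 0.87, 0.72 and 1.39 in HTE2, against 3.61, 3.49, 3.09, 3.05 and 3.41 in LTE2. Replicate 3 was not the highest HTE2 fish in this contig, which was 5.38-fold lower. CL114Contig1 was 5.07-fold lower, with 2.49, 1.98, 3.74, 2.22 and 2.29 in HTE2, against 4.67, 5.06, 4.70, 4.93 and 5.06 in LTE2. Replicate 3 stood above the other HTE2 fish of CL114Contig1 by more than 1 unit and still below every LTE2 fish.

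CL3560Contig1 was 4.64-fold lower, with -0.79, -0.53, 0.18, -0.77 and -0.58 in HTE2, against 1.65, 1.35, 1.45, 1.78 and 2.34 in LTE2. CL4019Contig1 was 4.62-fold lower, with -3.13, -3.31, -2.43, -3.44 and -3.65 in HTE2, against -1.07, -1.76, -0.68, -0.69 and -0.73 in LTE2. In both contigs replicate 3 was the highest HTE2 fish, and 4 HTE2 fish lay close together.

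Within the level limit of 6 set by the choice, the contigs covered nearly the whole range of level. Their mean over 10 fish ran from -5.61 to 5.85 with a median of 0.34, against a median of -0.25 over all contigs tested. In 61 contigs all 10 fish were above the 75th percentile of their array, in 52 all were below it, and in 13 every LTE2 fish was above it and every HTE2 fish below. The median difference was -1.22, -1.26, -1.26 and -1.36 in 4 bins of rising mean level (48 or 49 contigs each). The choice required a difference of -0.8 or less and no overlap at every level, so smaller falls were left out of each bin. These medians therefore cannot show whether the size of the fall depends on level. Contigs above the level limit are no members. With outlier spots left out, 62 tested contigs had a mean level above 6, and 60 of these were on the lower side in HTE2, with a median difference of -0.65, while with all spots 5 contigs above the limit met all other conditions, with differences between -1.59 and -1.07.

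The brightest member was CL1755Contig1, with levels of 5.53, 5.79, 5.99, 3.34 and 5.04 in HTE2, against 6.26, 6.54, 6.68, 6.89 and 6.42 in LTE2. CL965Contig1 had the same shape, with 5.94, 5.59, 6.03, 3.09 and 4.67 in HTE2, against 6.33, 6.72, 6.13, 6.64 and 6.45 in LTE2. In both, HTE2 replicate 4 was more than 1 unit below every other fish. The difference of CL965Contig1, -1.39, did not pass the limma test (adjusted p = 0.0539), with an SD of 1.23 in HTE2 and 0.24 in LTE2 (n = 5). The other tested probes of CL965Contig1 gave -1.48 and -1.47 and passed narrowly (limma adjusted p = 0.0448 and 0.0436). The call thus depends on the probe. CL2340Contig1, the other of the 3 brightest, had 5.14, 5.79, 5.44, 4.32 and 5.61 in HTE2, against 6.44, 6.44, 6.01, 6.19 and 6.96 in LTE2.

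At the dim end the values are less certain. All 10 arrays were well above background for 188 of the 193 contigs, and the other 5 were CL2401Contig1, CL3694Contig1, CL878Contig1, CL3847Contig1 and CL3360Contig1, named after their values were seen. CL3847Contig1, the dimmest, had levels of -6.45, -5.94, -6.17, -6.72 and -5.76 in HTE2, against -5.21, -4.88, -4.65, -5.29 and -5.00 in LTE2, and was well above background on 2 HTE2 and 3 LTE2 arrays. CL878Contig1 had -6.93, -5.38, -5.47, -5.97 and -5.40 in HTE2, against -4.22, -4.62, -4.41, -4.60 and -4.87 in LTE2, with 3 arrays of each group well above background. CL3360Contig1 had -5.83, -5.13, -5.25, -5.66 and -5.67 in HTE2, against -3.85, -4.85, -4.79, -4.77 and -5.03 in LTE2, and LTE2 replicate 1, the dimmest array, was the highest fish.

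The list ends at a difference of -0.8, and the contigs nearest to that limit on either side were alike in difference, by which they were picked. Just inside, CL2681Contig1 (-0.80), CL4449Contig1 (-0.82) and CL3568Contig1 (-0.82) had HTE2 means of -0.62, 0.29 and -0.50, against LTE2 means of 0.18, 1.11 and 0.32. Just outside, CL3285Contig1 (-0.79), CL3062Contig1 (-0.79) and CL2161Contig1 (-0.78) had HTE2 means of -3.82, -0.74 and -2.28, against LTE2 means of -3.02, 0.05 and -1.5.

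The space between the lowest LTE2 and the highest HTE2 fish had a median of 0.28 log2 units, was over 1 unit in 14 contigs and under 0.1 in 34. In CL787Contig1 it was 0.0019, with HTE2 levels of 4.73, 4.77, 5.44, 3.32 and 4.65, against 5.70, 5.46, 5.44, 5.80 and 5.88 in LTE2. In CL1258Contig1 it was 0.011, with 2.30, 2.20, 2.90, 1.42 and 2.25 in HTE2, against 3.24, 3.24, 2.91, 3.35 and 3.44 in LTE2. In both contigs the fish that nearly met were HTE2 replicate 3 and LTE2 replicate 3. Both contigs were among the 91 of the 193 whose probe had 1 spot, so they have no SD among repeated spots. For member probes with repeated spots, the median SD among the spots on 1 array was 0.06, more than spaces of this size. In CL1675Contig1 the space was 0.014, and there HTE2 replicate 5 (-3.48) nearly met LTE2 replicate 1 (-3.46).

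The HTE2 fish differed among themselves in a regular way. The median level over the 193 contigs was -0.25, -0.36, 0.18, -0.92 and -0.43 in HTE2 replicates 1 to 5, against 0.90, 1.13, 0.70, 0.95 and 1.08 in LTE2 replicates 1 to 5. Replicates 1, 2 and 5 lay close to one another, replicate 4 was the lowest of all fish and replicate 3 the nearest to LTE2. Replicate 4 was the lowest HTE2 fish in 140 of the 193 contigs (72.5%) and replicate 3 the highest in 131 (67.9%). Over all 3160 contigs tested, replicate 4 was the lowest HTE2 fish in 40.2% and replicate 3 the highest in 39.5%. This order was not particular to the 193. Among 343 contigs with a difference of -0.8 or less but overlapping groups, described below, the shares were 79.9% and 74.9%. In LTE2, replicate 5 was most often the highest fish (79 contigs) and replicate 3 most often the lowest (71 contigs). Over all 3160 contigs tested, LTE2 replicate 5 was highest in 671 and LTE2 replicate 3 lowest in 508, and there LTE2 replicate 2 was most often the lowest (992).

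The median SD between fish was 0.53 in HTE2 and 0.31 in LTE2 for the 193 contigs, and 0.47 in HTE2 and 0.31 in LTE2 for all contigs tested. The HTE2 SD was the larger in 157 of 193 contigs (81.3%), against 72.4% of all contigs tested. It was also the larger in 80.8% of the 343 contigs with overlapping groups. In 118 contigs that were higher in every HTE2 fish, described below, the share was 80.5%. In HTE2 this spread was wider among bright contigs, with a median SD of 0.69 in the brightest of the 4 bins and 0.45 in the dimmest. HTE2 replicate 4 was also the brightest array, with a 75th percentile of 1393, while replicate 3 had 819, replicate 1 had 782, replicate 2 had 1086 and replicate 5 had 633. The part of array brightness in the order of the fish was not tested.

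Set against the mean of HTE2 replicates 1, 2 and 5, replicate 4 was lower by more than 1 unit in 67 contigs, lower by 0.3 to 1 unit in 64, within 0.3 units in 45 and higher by more than 0.3 units in 17. These bounds were chosen after the values had been seen. CL3885Contig1 was the most extreme of the first kind, with 3.01, 3.01, 2.72, -0.12 and 2.24 in HTE2, against 3.88, 3.59, 3.64, 3.81 and 3.60 in LTE2. Its 2.89-fold difference was enlarged by replicate 4, which lay 2.87 units below the mean of replicates 1, 2 and 5. The other HTE2 fish also lay below every LTE2 fish in CL3885Contig1. At the other end stood CL4604Contig1, where replicate 4 was 1.45 units above that mean, followed by CL569Contig1 with 1.25. The levels of CL569Contig1 were -2.10, -1.45, -0.89, -0.29 and -1.05 in HTE2, against 1.04, 0.48, 0.28, 0.84 and 1.5 in LTE2. CL522Contig1 and CL3226Contig1 were also among the 17. The median difference was -1.26 in the first kind and -1.74 in the 17 contigs of the last.

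A few contigs had nearly the same level in all HTE2 fish. The lowest HTE2 SD, 0.15, was that of CL3000Contig1, with 0.99, 1.15, 1.09, 0.77 and 1.13 in HTE2, against 2.07, 2.25, 2.05, 2.63 and 2.54 in LTE2. In this contig HTE2 replicates 3 and 4 stood with the other HTE2 fish.

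**Figure D2:**
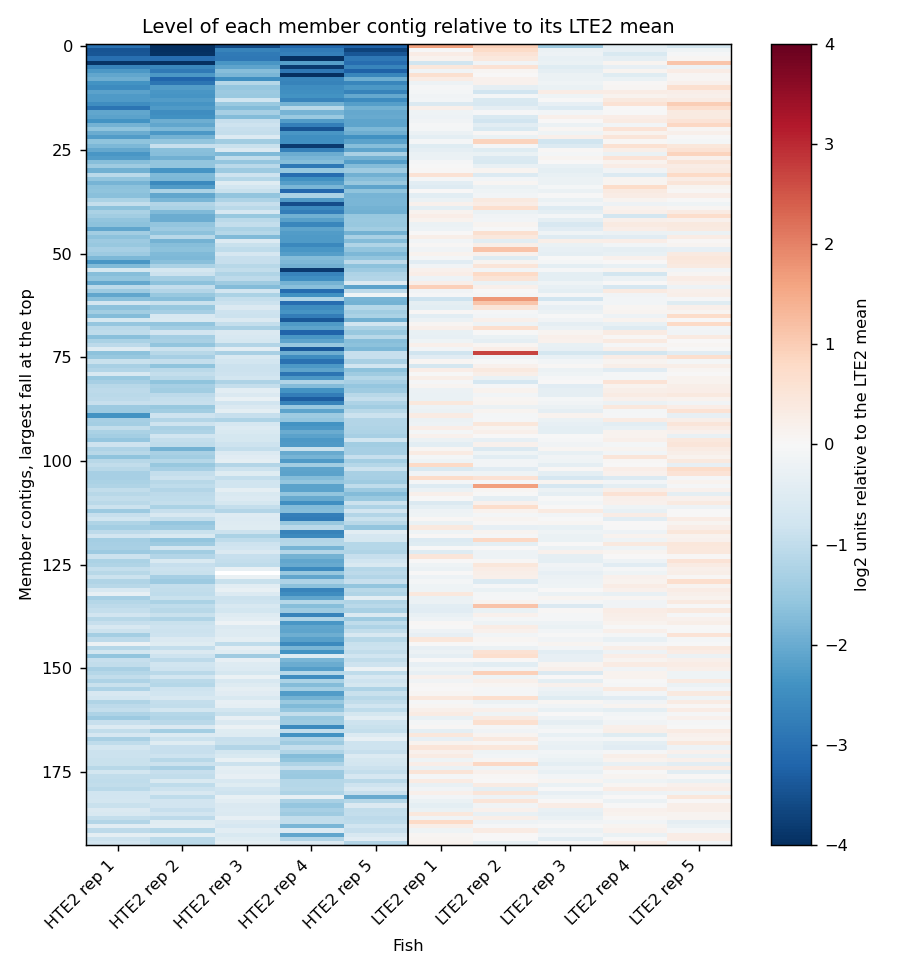
Each row is 1 of the 193 contigs, ordered from the largest fall at the top, and each column 1 fish, with the colour giving the level minus the LTE2 mean in log2 units (colours saturate at 4 units; the empty cell is an outlier spot, left out, of CL2488Contig1 in HTE2 replicate 3). The column of HTE2 replicate 4 is the darkest and that of replicate 3 the palest of the HTE2 fish, and single dark red cells in LTE2 replicate 2 mark contigs that were high in that fish.

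In 7 contigs, described after their values were seen, 1 LTE2 fish stood above the other LTE2 fish by more than 1 unit, and in 6 of these the fish was replicate 2. The most extreme was CL225Contig1, with levels of -2.43, -1.90, -2.08, -2.73 and -1.68 in HTE2, against -1.58, 1.92, -1.47, -1.51 and -1.24 in LTE2. Apart from replicate 2, the LTE2 fish of CL225Contig1 lay between -1.58 and -1.24. The HTE2 fish ran from -2.73 to -1.68, with a space of 0.10 between the groups. The difference of CL225Contig1, -1.39, did not pass the limma test (adjusted p = 0.101). CL2867Contig1 was of the same kind, with 0.54, 0.73, 0.94, -0.38 and 0.73 in HTE2, against 1.23, 3.38, 1.05, 1.35 and 1.69 in LTE2.

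Within each slide the HTE2 array was compared with the LTE2 array of the same slide. The median difference of the 193 contigs was -1.18, -1.21, -0.62, -2.01 and -1.40 on slides 1 to 5, against -0.11, -0.15, -0.02, -0.30 and -0.13 over all contigs tested. The absence of overlap fixes the sign on every slide, so only the size is informative. The difference was smallest on slide 3, where it ran from -2.62 to -0.0019, and largest on slide 4, where it ran from -4.44 to -0.34. With the slide as a replicate block, 151 of the 193 contigs were called lower (limma adjusted p under 0.05), against 8.53% of all probes. With the same block on the authors' value table, 73 contigs were called lower, against 2.29% of all probes. Without LTE2 replicate 4 and with no block, 139 contigs were called lower, against 6.56% of all probes, and without HTE2 replicate 3 it was 189, against 23.8%. CL2488Contig1 has no value on slide 3 and entered the fit with 9 arrays.

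**Figure D3:**
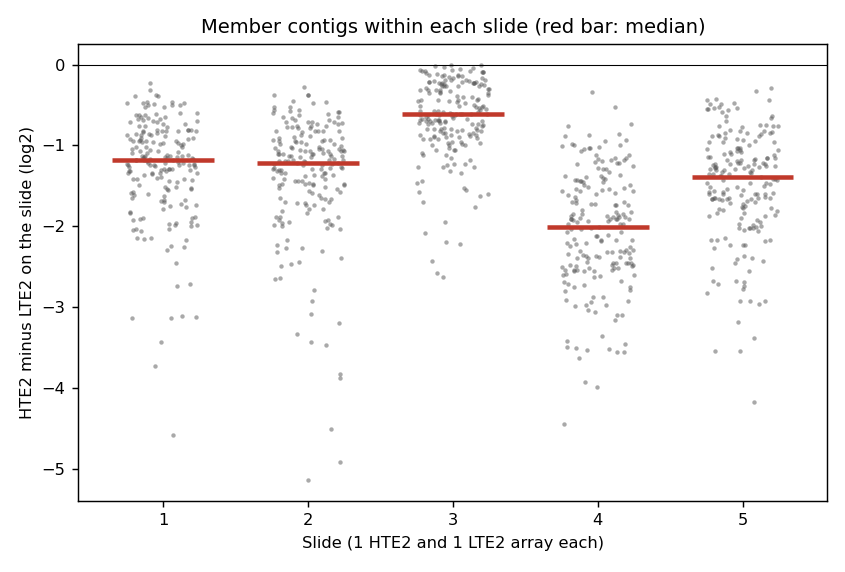
HTE2 minus LTE2 (y axis, log2 units) for each member contig on each of 5 slides (x axis), 1 point per contig, with the median over the members as a red bar. The medians are -0.62 on slide 3 and -2.01 on slide 4, and between -1.18 and -1.40 on the other slides.

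Contigs with other probes allowed the size of the fall to be read more than once in the same fish. Of the 193 contigs, 92 had 1 probe and 101 had 2 to 4, and 197 other probes in 100 contigs passed the detection filter. All 197 were lower in HTE2 on average, with a median difference of -1.20, and 170 of them (86.3%) had no overlap between the groups, against 8.67% of all probes tested. The difference at the other probe lay within 0.2 units of that at the chosen probe in 173 of 197. As these probes read the same RNA on the same arrays, they bear on the probe and not on the fish.

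Probes disagreed most in CL3858Contig1, where the chosen probe gave -0.84 and the other -1.57. In CL4425Contig1 the chosen probe gave -1.02 and the others -0.78 and -0.54, and in CL2859Contig1 the chosen probe gave -0.89 and the others -0.45 and -0.44. In 8 of the 100 contigs every other tested probe had overlapping groups, so that the absence of overlap rests on 1 probe. They were CL4425Contig1, CL2859Contig1, CL225Contig1, CL1406Contig1, CL4090Contig1, CL4449Contig1, CL3847Contig1 and CL3360Contig1, named after their values were seen. In 13 further contigs some of the other probes had overlapping groups.

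**Figure D4:**
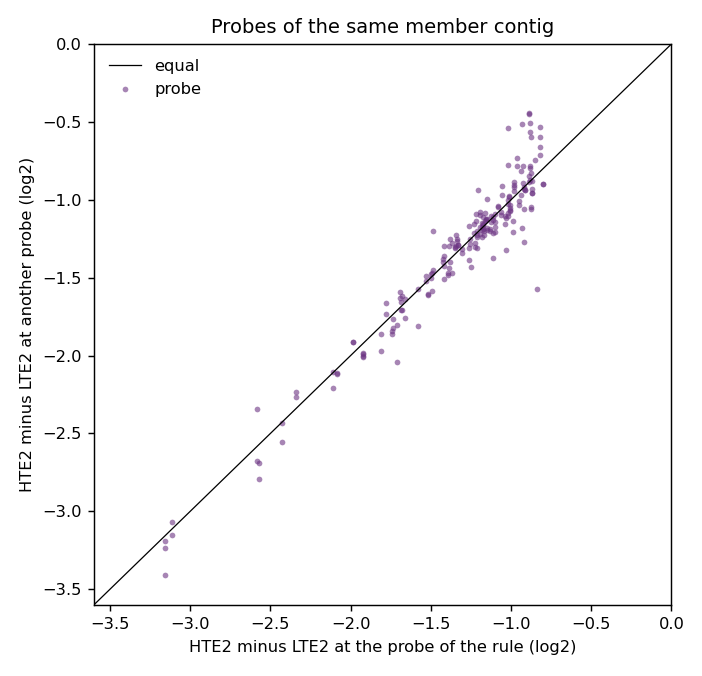
Difference HTE2 minus LTE2 (log2 units) at the probe that represents a member contig (x axis) and at another probe of the same contig (y axis), 1 point for each of 197 other probes. Points follow the line of equality over the whole range; the widest departures, such as CL3858Contig1 at -0.84 and -1.57, lie among the smaller falls.

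Contig names hold a number after CL, and on the array 68 such numbers are carried by more than 1 contig. Among the 193 contigs, 7 shared their number with another contig. CL523Contig1 and CL523Contig2 were both members, with differences of -1.58 and -1.66, as were CL1172Contig1 and CL1172Contig2, with -1.46 and -1.70. CL523Contig1 had levels of -0.73, -1.04, -0.43, -1.72 and -0.97 in HTE2, against 0.45, 1.75, 0.27, 0.25 and 0.28 in LTE2, and CL523Contig2 had -0.07, -0.31, 0.17, -0.93 and -0.56 in HTE2, against 1.32, 1.96, 1.14, 1.08 and 1.08 in LTE2. Both were highest in LTE2 replicate 2 and lowest in HTE2 replicate 4. The partners of the other 3 were CL387Contig1, CL454Contig1 and CL664Contig1, with differences of -0.98, -1.04 and -0.90, and they missed the list because their groups overlapped by 0.22, 0.24 and 0.19 units. Contigs of such similar name may share sequence, and whether a probe also binds the RNA of the partner was not tested.

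Several contigs with unrelated names followed one another closely over the fish. Likeness was taken as the SD, over the 10 fish, of the level difference between 2 contigs, and over 18528 pairs of members its median was 0.54. The closest pair was CL1383Contig1 and CL4046Contig1, with an SD of 0.095. CL1383Contig1 had levels of 4.33, 3.95, 4.84, 4.35 and 4.37 in HTE2, against 4.93, 5.17, 5.28, 5.56 and 5.66 in LTE2. CL4046Contig1 had 2.01, 1.82, 2.72, 2.18 and 2.26 in HTE2, against 2.86, 2.95, 2.91, 3.41 and 3.41 in LTE2. In both, replicate 2 was the lowest and replicate 3 the highest HTE2 fish, while replicate 4 stood with replicates 1 and 5. The next pairs were CL3317Contig1 with CL2930Contig1 (0.11), CL914Contig1 with CL1781Contig1 (0.11) and CL1258Contig1 with CL1694Contig1 (0.11). CL914Contig1 had 0.29, -0.05, 0.93, -1.03 and -0.07 in HTE2, against 1.10, 1.47, 0.98, 1.58 and 1.59 in LTE2, and CL1781Contig1 had -0.36, -0.55, 0.23, -1.53 and -0.86 in HTE2, against 0.37, 0.69, 0.36, 0.84 and 0.79 in LTE2. The pairs were picked as the closest of many, and no test was made of them.

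The condition that no fish overlap kept out many contigs with a fall of the same size. Of the contigs within the level limit, 343 had a difference of -0.8 or less but overlapping groups when all spots were used, as in the choice of the 193. With outlier spots left out, 340 of the 343 were still at or below -0.8, and the median difference of the 343 was -1.01, against -1.26 in the 193. In 198 of the 343 (57.7%) HTE2 replicate 3 was the only HTE2 fish above the lowest LTE2 fish. The median difference of these 343 contigs on slide 3 was -0.02, against -0.62 in the 193, and on slide 4 it was -2.01 in each of the 2 sets. With outlier spots left out, 194 contigs met the conditions over all 10 fish. Without HTE2 replicate 3 it was 501, and without both arrays of slide 3 it was 563. Leaving out any other single fish gave between 169 (HTE2 replicate 4) and 256 (LTE2 replicate 3). In the 193 contigs HTE2 replicate 3 lay below every LTE2 fish, as did all other HTE2 fish, a condition set by the choice. On a scale where the LTE2 mean is 0 and the HTE2 mean is 1, HTE2 replicate 3 had a median place of 0.59 and replicate 4 of 1.49, while replicates 1, 2 and 5 had 0.97, 0.95 and 0.97. Over all contigs tested, rising and falling ones together, the median place was 0.27 for replicate 3 and 1.66 for replicate 4. This scale is unstable where the group means are close, and replicate 3 ran there from -1000 to 1357. In the 343 contigs with overlap replicate 3 had 0.22. The choice limits where replicate 3 can lie in the 193 and in the 343, so nothing is read from these contrasts.

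The same conditions turned round gave 118 contigs that were higher in every HTE2 fish, 3.81% of those within the level limit against 6.23% for the 193. Their median difference was 1.18. The order of the fish was mirrored there, with replicate 4 the highest HTE2 fish in 79 of 118 and replicate 3 the lowest in 105. The median place of HTE2 replicate 3 between the group means was 0.47 among these 118 contigs and 0.59 among the 193. As the choice uses the same fish in each direction, the difference between the 2 sets was not tested.

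Values were relative to each array's 75th percentile, and the fall in the 193 contigs depended on that reference. On the scale of the spike-in RNA of the labelling kit, the median difference of all probes moved from -0.18 to 0.85, and that of the 193 contigs from -1.26 to -0.24, so that their distance from the median of all probes stayed nearly the same by construction. On that scale 146 of 193 contigs were lower in HTE2 on average, 2 had no overlap (against 0.0895% of all probes), and 5 were called lower (limma adjusted p under 0.05, against 0.159% of all probes). The 5 were CL2917Contig1, CL522Contig1, CL3226Contig1, CL2317Contig1 and CL4604Contig1, the contigs with the largest falls. The standard error of the difference was 0.689 for each of the 5. Among them the call therefore followed the size of the difference, which also chose the contigs, and nothing is read from it.

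With the brightness of the array as a covariate, the median difference of the 193 contigs was -1.13, and 13 were called lower (limma adjusted p under 0.05, against 0.437% of all probes). The 13 were CL4604Contig1, CL522Contig1, CL3226Contig1, CL2317Contig1, CL3332Contig1, CL2256Contig1, CL3560Contig1, CL4125Contig1, CL3906Contig1, CL3693Contig1, CL730Contig1, CL2715Contig1 and CL1121Contig1, named because they passed. CL2917Contig1, with the largest difference and the widest LTE2 spread of the 12 described first, was not among them. Brightness differed between the groups, so the covariate is partly confounded with group. The same contrast also chose the contigs, and nothing is read from these calls.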

How the data were processed

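RNA from 10 gonads was hybridised to 1-colour Agilent arrays; 100 ng with an integrity number above 7 was labelled with Cy3, per the labels' protocols. The deposited scanner files hold intensities made with Agilent Feature Extraction 10.7.3.1, per the file headers, background-subtracted and detrended within the array and not normalized between arrays. The deposited value table holds log2 values; the tools listed in the submitters' processing notes are limma and Agilent Feature Extraction, with no account of their use (not given in the sources used here). The scale of the table is log2 from the values, its direction follows the intensities, and the exact normalization stays unknown.

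From these intensities a level per probe was computed as described above. Contigs were chosen with all spots, and outlier-flagged spots were left out of the values and fits, together with control spots; saturation was not seen. Probes passing the filter (20115 of 24200) entered limma (version 3.58.1, R 4.3.3), a two-sided fit of group alone, adjusted over all probes by Benjamini-Hochberg and tried on simulated data. There it called 64% of the 4-fold and 22% of the 2-fold changes put in, with 6 false calls. Most 2-fold changes were thus missed in the simulation. Far fewer probes were changed there than were called in the data (5638 of 20115), which made the adjustment stricter. These shares therefore do not carry over to the data. Each array is a separate fish, and the small number of arrays sets the precision. Also tried were a replicate block (the slide, fixed), the slide as a random term, normexp on the median spot and background intensity (offset 50), quantile and median scaling, spike-in scaling over 7 of 10 probes, the authors' table, other filters, a brightness covariate, and omission of each fish. Same-numbered arrays shared a slide, which entered as a batch only in the alternatives with a block or a random term. The deviations of same-numbered arrays from their group means correlated at 0.38, 0.29, -0.32, 0.03 and 0.17 on slides 1 to 5. Of the 5 HTE2 arrays, 3 correlated best with the LTE2 array of their own number. With these mixed values the numbers were not taken to pair the fish, and the main fit left the slide out.

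The conditions that define the contigs, the rule for named contigs and the alternatives were chosen with earlier results of these data known. Named were the 12 largest falls, the 3 brightest and dimmest, the 3 on either side of the limit, the 3 widest and narrowest spaces between the groups and the 3 with the least alike probes; others were chosen after their values were seen. Gene lists and cell type markers were not used, as no gene names were used here. Figures were drawn with matplotlib 3.10.9.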

Additional observations from a re-analysis of the deposited data

Results flagged for a closer look

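In 64 groups of 5 values (the named contigs, the array brightness and the median level of the 193 contigs, in HTE2 and in LTE2) a fish was looked for that lay far from the others of its group by Dixon's ratio of gap to range. Chance alone picks about 1 such group in 20 when groups are independent, and 7 of the 64 were found. These groups came from the same 10 fish, and many contigs were named for extreme values. The count therefore cannot be judged against that rate. HTE2 replicate 4 was far below the next HTE2 fish in CL2317Contig1 (-4.40, next -3.48), CL3568Contig1 (-1.77, next -0.31), CL3858Contig1 (-4.49, next -3.46) and CL2161Contig1 (-3.6, next -2.01), the last of which lies just outside the limit. HTE2 replicate 3 was far above the next HTE2 fish in CL3560Contig1 (0.18, next -0.53). LTE2 replicate 1 was far above the next LTE2 fish in CL3360Contig1 (-3.85, next -4.77). Its array was also far dimmer than the others, with a log2 75th percentile of 7.93 against the next LTE2 array at 9.0.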

How the results depend on the processing

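Of 686 comparisons of the 30 named contigs with an alternative, 557 kept direction and side of the threshold, 113 lost the call, 4 gained it and 12 changed sign. All 12 changes of sign came with spike-in scaling, with differences (HTE2 minus LTE2) of 0.17 for CL3360Contig1, 0.22 for CL2681Contig1, 0.20 for CL4449Contig1, 0.20 for CL3568Contig1, 0.0024 for CL1258Contig1, 0.090 for CL1675Contig1, 0.18 for CL3858Contig1, 0.00084 for CL4425Contig1, 0.13 for CL2859Contig1, 0.23 for CL3285Contig1, 0.23 for CL3062Contig1 and 0.24 for CL2161Contig1. Under that scaling 3254 probes were called in place of 5638, 5 of the 193 contigs were called lower, their median difference was -0.24, 2 did not overlap and 2 met all conditions. Their median was then 1.41 on slide 1, -0.044 on slide 2, -0.87 on slide 3, 0.16 on slide 4 and -1.96 on slide 5. In the authors' value table the median was -0.94, and -1.44 on slide 4. There 158 of the 192 members measured did not overlap, and 110 contigs met all conditions, 106 of them members. Of the 193, 152 did not overlap with normexp, 171 with quantile scaling and 170 with median scaling. All conditions were then met by 143, 166 and 166 of the 193. With the replicate block 3199 probes and 151 of the 193 contigs were called, and with the block on the authors' table, an alternative chosen after seeing the data, 638 probes (496 lower in HTE2, 2.29% of those tested) and 73 contigs. The brightness covariate left 99 probes and 13 contigs. With 1 probe per transcript 2527 probes were called, from fewer tested. Without single fish the calls ran from 2806 (LTE2 replicate 4) to 8809 (HTE2 replicate 3), with 2977, 3344 and 3731 without HTE2 replicates 1, 2 and 4 and 2840 without LTE2 replicate 5. The members called lower then ran from 139 (without LTE2 replicate 4, against 6.56% of all probes) to 189 (without HTE2 replicate 3, against 23.8%), and the contigs that met the conditions from 169 (without HTE2 replicate 4) to 501 (without HTE2 replicate 3). Without both arrays of slide 3, 563 met them, against 194 over all fish with outlier spots left out. Other causes than those of construction were not tested.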
